A study of Homo sapiens with 6 samples.

Results

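The genes described here encode 2 Ras proteins, NRAS and HRAS, and 7 Ras GTPase-activating proteins (GAPs): RASA1, RASA2, RASA3, RASA4, RASAL2, NF1 and DAB2IP. They are 9 of the 60675 gene rows of the table, taken by exact gene name. They were selected on earlier values of the same contrast between the 2 compounds, that of RASA4 in particular. Their differences are therefore given below as a description, without p-values. Where a member is said to pass an adjusted p threshold or not, this describes its row and does not test it. RNA came from HT1080 cells, an established human fibrosarcoma line labelled wild type and known to carry a mutant NRAS allele. The cells received SW-113 or SW-138, inhibitors of the lysine deacetylase KDAC6 (HDAC6), each at 1 µM for 48 h. Each compound had 3 libraries, which makes 6. No vehicle group was analysed here, so a gene is called higher or lower in SW-138 against SW-113 as the reference, and which compound moved it cannot be told apart.

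Ras proteins are small GTPases that signal when bound to GTP and fall silent once the GTP is cut to GDP. Exchange factors such as SOS1 load GTP, and GAPs speed its hydrolysis. The GTP-bound form recruits RAF kinases, which start the cascade through MEK to ERK. Mutant Ras proteins found in tumours resist GAPs, whereas the normal copies and paralogues in the same cell can still be switched off by them. The counts are per gene and do not separate the mutant from the normal NRAS allele.

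What the counts can separate differs between the members. RASA4 has a near-identical copy, RASA4B, also on chromosome 7. The reference coding sequences of the 2 genes (GENCODE 29, GRCh38, RASA4-201 and RASA4B-202) are both 2412 bases long and have 4 mismatches. Of the 2263 windows of 150 bases in the RASA4 coding sequence, 1798 (79.5%) also occurred in transcripts of RASA4B. Over all 17 annotated RASA4 transcripts, 57.5% of the windows of that length occurred in a transcript of another gene.

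The 2 RAS genes are a contrast, since they encode closely related proteins in DNA that has drifted apart. The NRAS and HRAS coding sequences are both 570 bases long and differ at 154 of them (73.0% identity). The longest identical run is 14 bases, and 0 windows of 150 bases are shared.

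Among the other members, the share of 150-base windows found in another gene was 5.77% for RASA1 (all with CCNH, which overlaps it), 1.38% for RASAL2 and 0.0171% for NF1. It was 0% for RASA2, RASA3 and DAB2IP.

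Library totals lay between 32771670 and 50871623 estimated counts. One library, SW-138 replicate 2, lay away from the rest: on the leading principal component, which held 32.2% of the variance, it scored 39.08 and the other 5 scored -24.05 to 5.88. The signal recognition particle RNA RN7SL1 took 3.72% to 4.39% of the counts with SW-113 and 2.14% to 2.88% with SW-138. Short transcripts tended to be lower: the median log2 difference was -0.08 over the 1678 tested genes with the shortest transcripts and 0.05 over the 1678 with the longest. Values with length and GC trends removed are therefore given beside the members' differences. The part of RN7SL1 in those differences was not tested. Leaving libraries out cannot separate it, since its share differed between the compounds in every library. The part of the library that lay apart was not tested except by leaving libraries out. Of 8 mesenchymal markers, which fibrosarcoma cells should express, 7 were at 1 CPM or more (CPM, counts scaled to a common library total) and THY1 was not, with summed levels of 6860 to 7690 CPM with SW-113 and 7280 to 8030 CPM with SW-138. Epithelial markers summed to between 2.38 and 3.60 CPM, leukocyte markers to at most 0.597 CPM and endothelial markers to at most 0.959 CPM. Whether the replicates are separate cultures is not in the labels, so p-values below measure the spread between these samples only, and that spread may be technical.

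All 9 members had enough counts to enter the fit of 16905 genes. RASA4 and RASA1 were higher in SW-138, HRAS was lower, and the other 6 did not pass, RASA3 among them at a log2 difference of 0.18 with an interval above 0. At an edgeR adjusted p under 0.05 over all tested genes, 2 members were higher and 1 was lower, where 2.76% of tested genes were higher, 4.06% were lower and 6.82% passed in either direction. The members' median log2 difference was 0.08, against 0.01 over all tested genes. For 4 members, RASA4, RASA1, RASA3 and HRAS, the 3 libraries of one compound did not overlap those of the other, as held for 27.9% of tested genes. Since the members were chosen with this contrast known, nothing is read from these counts. In bulk RNA a difference in every cell and a difference in some of the cells cannot be told apart.

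**Figure D1:**
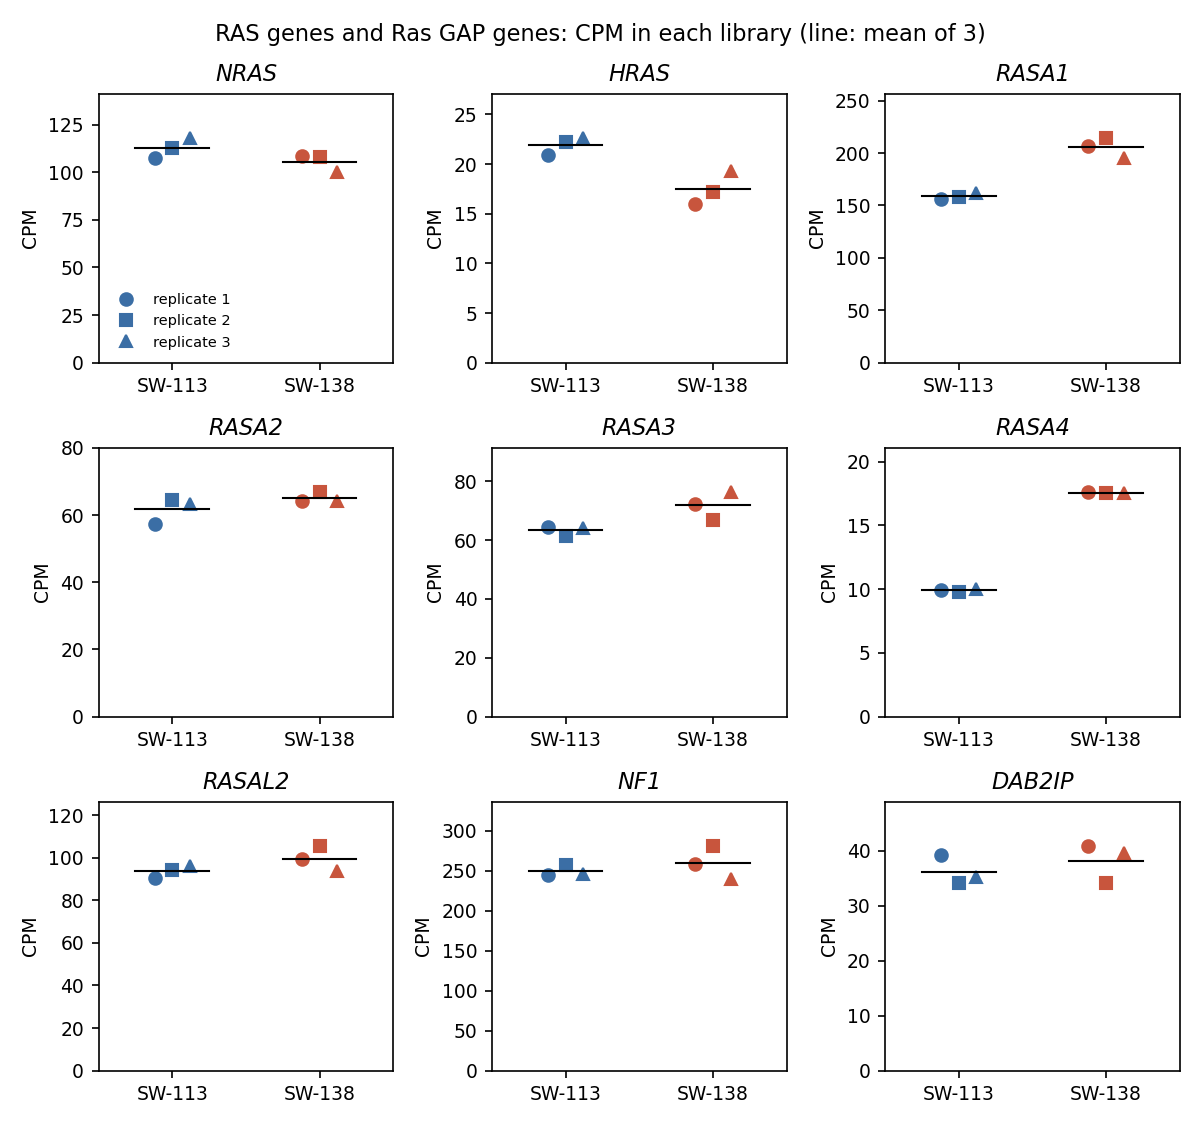
CPM of each RAS and Ras GAP gene (vertical axis, from 0) in the 3 SW-113 libraries (blue) and the 3 SW-138 libraries (red), with replicates by symbol and the mean of 3 as a line. RASA4 sat near 10 CPM in every SW-113 library and between 17.5 and 17.6 CPM in every SW-138 library, RASA1 and HRAS separated in opposite directions, and NRAS, RASA2, RASAL2, NF1 and DAB2IP overlapped.

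NRAS, the RAS gene that carries the mutation in this line (ENSG00000213281, GRCh38 chromosome 1, 114704469 to 114716894, minus strand), was at 107.4, 112.5 and 117.8 CPM in SW-113 replicates 1, 2 and 3. In SW-138 replicates 1, 2 and 3 it was at 108.3, 107.8 and 100.1 CPM. The groups overlapped through SW-113 replicate 1, which lay below 2 of the SW-138 libraries. The log2 difference was -0.09 ± 0.05 (SE), with a 95% interval of -0.22 to 0.03. With length and GC trends removed the value was -0.14, and with scaling by total count alone it was -0.03.

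HRAS (ENSG00000174775, chromosome 11, 532242 to 537287, minus strand), which encodes a close relative of the NRAS protein, was the less abundant RAS gene. Its CPM values were 20.94, 22.22 and 22.59 with SW-113, and 15.94, 17.22 and 19.33 with SW-138. Every SW-138 library lay below every SW-113 library. The means were 21.9 ± 0.865 CPM (SD, n = 3) and 17.5 ± 1.71 CPM, and the log2 difference was -0.33 ± 0.08 (SE), a ratio of 0.798 to SW-113, with an interval of -0.50 to -0.15. HRAS has a short transcript (1233 bases) of high GC content (65.8%), and with those trends removed the difference was -0.23 and HRAS no longer passed. With a block for replicate number added it passed, at -0.23, in a fit that called 2257 genes in place of 1153. The call was also lost with scaling by total count alone (-0.26) and without any one SW-113 library or SW-138 replicate 1, where it ran from -0.36 to -0.26.

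RASA4 encodes CAPRI, a GAP that moves to the plasma membrane when calcium rises (ENSG00000105808, chromosome 7, 102573807 to 102616757, minus strand). It had 382.36, 486.78 and 407.68 estimated counts in the SW-113 libraries and 734.45, 593.24 and 645.94 in the SW-138 libraries. Scaled, these were 9.93, 9.82 and 10.03 CPM against 17.6, 17.55 and 17.54 CPM. The groups were far apart and the libraries within each were nearly equal. The log2 difference was 0.82 ± 0.07 (SE), a 1.77-fold higher level in SW-138, with an interval of 0.67 to 0.98. Leaving out each library in turn gave 0.82 to 0.83. The value was 0.82 with length and GC trends removed and 0.89 with scaling by total count alone.

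RASA4B, the copy described above (chromosome 7, 102482445 to 102517781), took a smaller part of the reads. Its levels were 4.001, 2.964 and 3.61 CPM with SW-113 against 4.48, 5.30 and 4.21 CPM with SW-138, a log2 difference of 0.41 ± 0.15 (SE; edgeR, Benjamini-Hochberg adjusted p = 0.136). The 2 pseudogene copies, RASA4CP and RASA4DP, had at most 7.86 counts in a library. RASA4 received 71.3% to 75.9% of the counts of the 4 rows in the SW-113 libraries and 75.6% to 79.6% in the SW-138 libraries. These ranges overlapped only through replicate 2 of each compound (75.9% and 75.6%). In replicates 1 and 3 the share was 71.3% and 72.9% with SW-113 against 79.0% and 79.6% with SW-138. Summing the 4 rows removes the division of reads among them, and gave 13.9, 12.9 and 13.7 CPM with SW-113 against 22.3, 23.2 and 22.02 CPM with SW-138. The summed log2 difference was 0.73 ± 0.07 (SE), with an interval of 0.59 to 0.88. A readthrough row that runs through RASA4, RP11-514P8.6, held 42.2 to 95.49 counts, and adding it as well, a choice made after seeing the data, gave 0.72. Whether RASA4 and RASA4B differ from each other in their response was not tested.

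**Figure D2:**
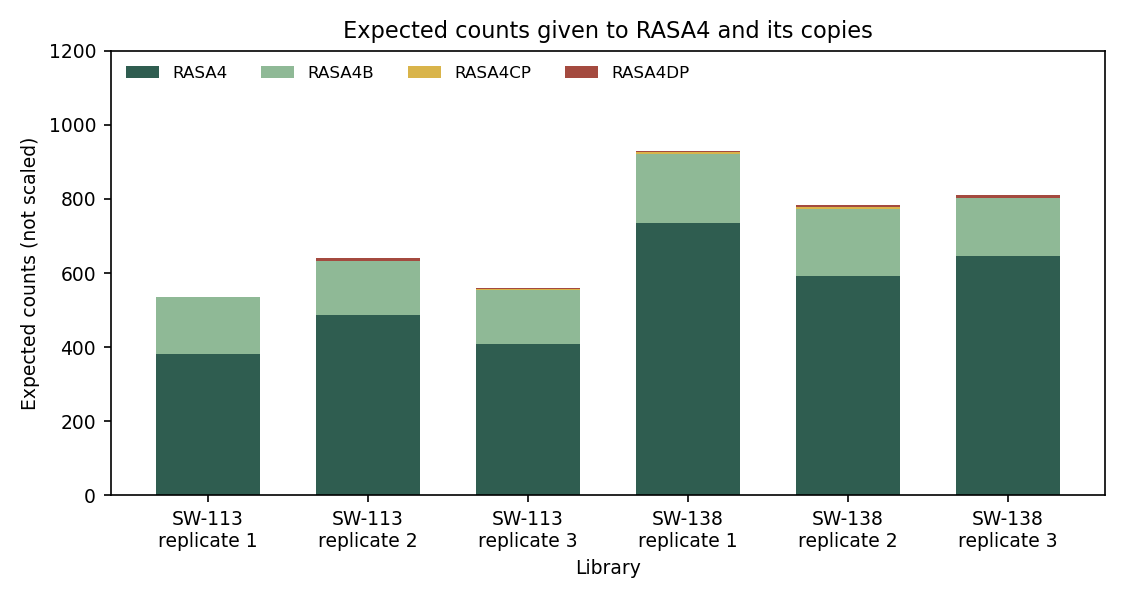
Unscaled expected counts (vertical axis, from 0) given to RASA4, RASA4B, RASA4CP and RASA4DP in each of the 6 libraries, stacked. RASA4 holds 71.3% to 79.6% of each bar, the pseudogene copies are barely visible, and the 3 SW-138 bars are taller although the SW-138 libraries include the shallowest one.

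RASA1 encodes the GAP that is recruited through its SH domains to phosphorylated receptors (ENSG00000145715, chromosome 5, 87267888 to 87391931, plus strand). It was at 156.3, 157.8 and 161.6 CPM with SW-113 against 206.6, 214.0 and 195.6 CPM with SW-138. The lowest SW-138 library lay well above the highest SW-113 library. Means were 158.6 ± 2.77 CPM (SD, n = 3) and 205.4 ± 9.28 CPM, and the log2 difference was 0.37 ± 0.05 (SE), 1.3-fold higher in SW-138, with an interval of 0.27 to 0.48. It was 0.34 with length and GC trends removed and stayed between 0.34 and 0.41 when any 1 library was left out. CCNH, the cyclin H gene that overlaps RASA1 and shares windows with it, was at 41.9 CPM with SW-113 against 43.2 CPM with SW-138, a log2 difference of 0.04 ± 0.07 (edgeR, Benjamini-Hochberg adjusted p = 0.751).

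RASA2 and RASA3 belong with RASA4 to the GAP1 family, whose members bind membrane lipids through C2 and pleckstrin homology domains. RASA3 (ENSG00000185989, chromosome 13, 113977783 to 114132611, minus strand) was at 64.28, 61.54 and 64.06 CPM with SW-113 and at 72.22, 66.9 and 76.22 CPM with SW-138. Its libraries did not overlap, but its row did not pass, at a log2 difference of 0.18 ± 0.06 (SE) with an interval of 0.05 to 0.31. The row passed with length and GC trends removed (0.17), with scaling by total count alone (0.25) and without SW-138 replicate 2. RASA2 (ENSG00000155903, chromosome 3, 141487047 to 141615342, plus strand) ran from 57.32 to 64.59 CPM with SW-113 and from 64.06 to 66.75 CPM with SW-138. Its groups overlapped, and the log2 difference was 0.07 ± 0.06, or 0.004 with length and GC trends removed. Within the GAP1 family, then, values ran from 0.07 in RASA2 to 0.82 in RASA4.

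NF1 encodes neurofibromin, the GAP lost in neurofibromatosis (ENSG00000196712, chromosome 17, 31094927 to 31382116, plus strand). It had the highest CPM of the members, at 244.8, 257.5 and 246.5 with SW-113 and 258.4, 280.6 and 239.9 with SW-138. Both the highest and the lowest library were SW-138 libraries. The log2 difference was 0.06 ± 0.06 (SE) with an interval of -0.08 to 0.19, and it was -0.0045 without SW-138 replicate 2, the library that stood apart. That was the one sign change of an NF1 value among its 16 alternatives.

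RASAL2 and DAB2IP are GAPs of the SynGAP family, both known as tumour suppressors in several carcinomas. RASAL2 (ENSG00000075391, chromosome 1, 178094141 to 178484147, plus strand) ran from 90.55 to 96.26 CPM with SW-113 and from 93.93 to 105.3 CPM with SW-138, a log2 difference of 0.09 ± 0.06 (SE) with an interval of -0.04 to 0.21. DAB2IP (ENSG00000136848, chromosome 9, 121567057 to 121785530, plus strand) ran from 34.08 to 39.26 CPM with SW-113 and from 34.05 to 40.76 CPM with SW-138, a log2 difference of 0.08 ± 0.08 with an interval of -0.10 to 0.26. In both genes the groups overlapped.

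**Figure D3:**
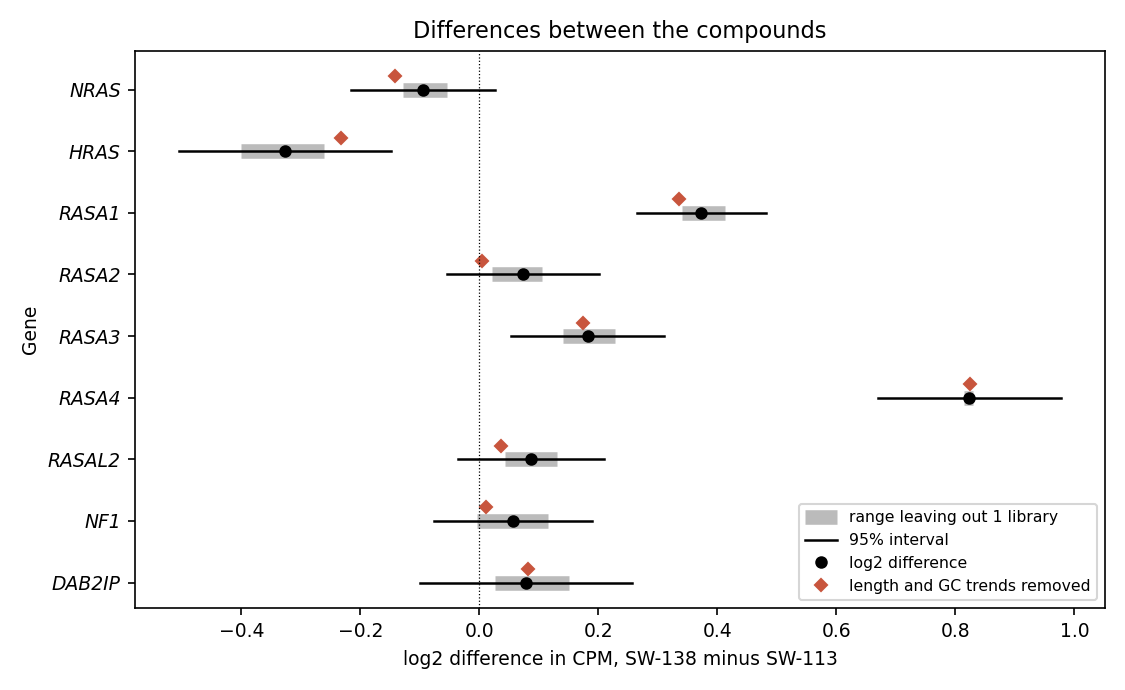
Log2 difference in CPM, SW-138 minus SW-113 (horizontal axis), for each member, with its 95% interval (black), the range of values when each library in turn was left out (grey) and the value with length and GC trends removed (red diamond). The RASA4 interval of 0.67 to 0.98 lies to the right of all the others, and those of NRAS, RASA2, RASAL2, NF1 and DAB2IP include 0.

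Added up by role, the 2 RAS genes summed to 128.3, 134.7 and 140.4 CPM with SW-113 against 124.2, 125.0 and 119.4 CPM with SW-138. The 7 GAP genes summed to 662.4, 679.5 and 676.8 CPM and to 758.8, 785.1 and 726.8 CPM. Neither pair of sums overlapped, as held for the single rows of 27.9% of tested genes. The sums pool genes of unlike length, chosen with this contrast known, and were not made under another scaling. The mean GAP sum was 84.0 CPM higher in SW-138, of which RASA1 made up 46.8 CPM. Without RASA1 the GAP sum was 514.4 CPM with SW-113 against 551.5 CPM with SW-138, 37.2 CPM higher. Although RASA4 had the largest ratio, its low level left it a small part of the sum.

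Levels can be compared between genes only per length. Per kilobase of merged exons, RASA1 had the highest level with SW-113, at 30.3 ± 0.528 CPM per kilobase (SD, n = 3), followed by NRAS at 25.3 ± 1.17 and RASA3 at 13.3 ± 0.319. HRAS came next at 11.8 ± 0.467, then RASA2 at 10.3 ± 0.646 and NF1 at 9.20 ± 0.253. At the low end were RASAL2 at 5.84 ± 0.180, DAB2IP at 3.96 ± 0.300 and RASA4 at 1.23 ± 0.0129 CPM per kilobase. With SW-113 no 2 neighbours in this order overlapped between libraries.

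With SW-138 the order on the same scale was RASA1, NRAS, RASA3, RASA2, NF1, HRAS, RASAL2, DAB2IP and RASA4. HRAS thus moved from the fourth place to the sixth, at 9.44 ± 0.923 CPM per kilobase, and its libraries (8.6 to 10.4) overlapped those of NF1 (8.84 to 10.3). RASA4 stayed last at 2.17 ± 0.00395 CPM per kilobase. The places in the middle rest on the length used. With the longest transcript in place of the merged exons, NF1 took the third place in both groups (20.1 and 20.9 CPM per kilobase), because its merged exons (27130 bases) are far longer than its longest transcript (12425 bases). RASA1, NRAS, RASAL2, DAB2IP and RASA4 kept their places under both lengths and with both compounds.

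**Figure D4:**
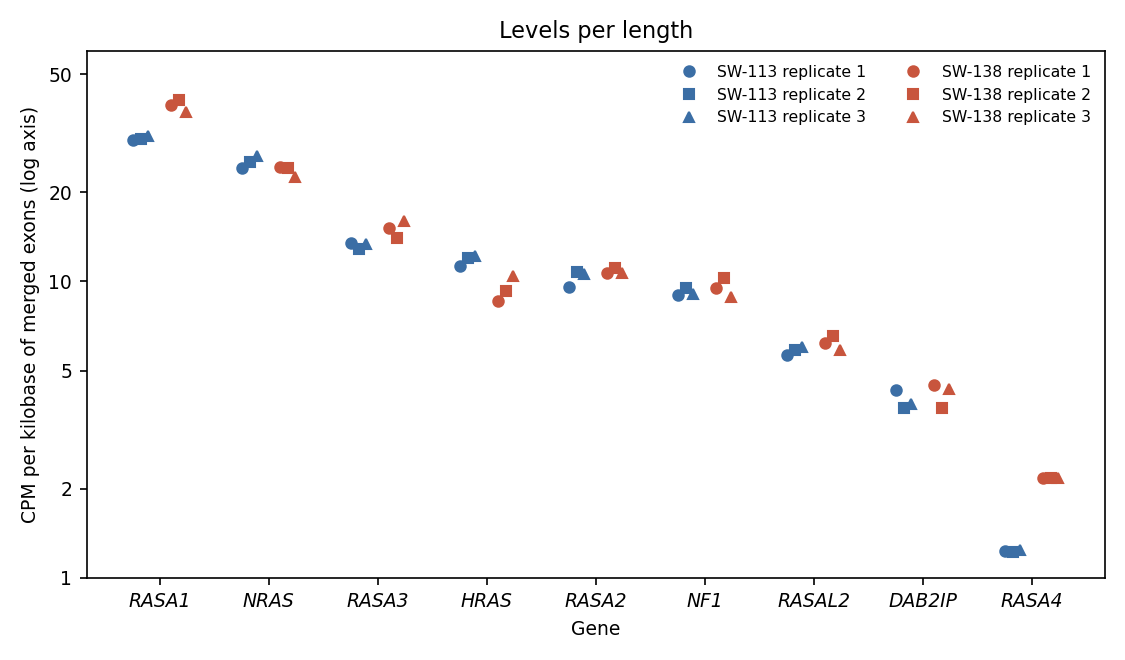
Level of each member per kilobase of merged exons (vertical log axis, CPM per kilobase), for the 3 SW-113 libraries (blue) and the 3 SW-138 libraries (red). RASA1 and NRAS lie above 20 CPM per kilobase and RASA4 near 1 to 2, and HRAS overlaps NF1 with SW-138, below RASA2.

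The other genes of the Ras pathway, 130 in 8 lists compiled from textbook knowledge, mostly did not pass. Of the 114 tested, 6 were higher and 7 were lower, and 101 did not pass (edgeR, Benjamini-Hochberg adjusted p under 0.05 over all tested genes), beside 2.76% higher and 4.06% lower among all tested genes. Their median log2 difference was -0.02, against 0.01 over all tested genes. Of these 13 calls, 2 held and 3 were lost whichever library was left out.

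Among exchange factor genes, which switch Ras and its relatives on, 0 of 13 passed in edgeR, and DESeq2 and limma-voom likewise gave 0; before adjustment 1 had a p under 0.05. Their median was 0.10, with 11 of the 13 values above 0, or 8 of 13 without SW-138 replicate 2. Among all 16905 tested genes, 8711 values lay above 0. RAPGEF1 and RAPGEF2, exchange factor genes for Rap, were at 0.08 ± 0.07 and 0.10 ± 0.07. SOS1, which loads Ras in response to receptors, was at 73.0 CPM with SW-113 against 65.9 CPM with SW-138 (log2 difference -0.15 ± 0.06, SE; edgeR, Benjamini-Hochberg adjusted p = 0.165). It passed with length and GC trends removed, at -0.21. Receptor adaptor and regulator genes gave 0 of 17 in edgeR, DESeq2 and limma-voom, and 2 had an edgeR p under 0.05 before adjustment. The adaptor gene SHC1 was at -0.02 ± 0.05 and the phosphatase gene PTPN11 at -0.05 ± 0.05.

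Other genes with GAP domains or GAP-like names had 2 of 12 higher and 1 lower, with a median of 0.06. IQGAP3, a scaffold that carries a GAP-related domain, averaged 60.6 ± 8.57 CPM over the SW-113 libraries (SD, n = 3) and 85.0 ± 6.70 CPM over the SW-138 libraries, a log2 difference of 0.49 ± 0.10 (SE; edgeR, Benjamini-Hochberg adjusted p = 0.0158). That call was lost without SW-113 replicate 1, SW-138 replicate 1 or SW-138 replicate 3. The Rap GAP gene SIPA1L3 was at 0.30 ± 0.05 and its relative SIPA1 at -0.20 ± 0.05. SIPA1L3 lost its call without SW-113 replicate 2 and without replicate 3, and SIPA1 lost it whichever library was left out, with DESeq2, with total count alone and with length and GC trends removed. RASAL1 and RASAL3, further Ras GAP genes, had too few counts to test.

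Related small GTPase genes had 0 of 16 higher and 2 lower, with a median of -0.10. Of the 16 values, 15 lay below 0, or 10 of 16 with scaling by total count alone. Among all 16905 tested genes, 8194 lay below 0. RAP2B, a Rap GTPase gene, was at 171.7, 152.9 and 162.5 CPM with SW-113 against 129.9, 128.0 and 136.3 CPM with SW-138 (-0.30 ± 0.05, SE; edgeR, Benjamini-Hochberg adjusted p = 0.0124). RRAS, a close relative of HRAS, was at 45.5 ± 1.33 CPM (SD, n = 3) and 36.8 ± 2.92 CPM (-0.31 ± 0.07, SE; edgeR, Benjamini-Hochberg adjusted p = 0.0208), and at -0.22 with length and GC trends removed. RAP2B lost its call without SW-113 replicate 1 and without replicate 3, and RRAS without any one SW-113 library or SW-138 replicate 1. Of 13 genes for Ras lipidation and trafficking, edgeR called 0 higher (DESeq2 called 1) and 1 lower, the thioesterase gene LYPLA2 (-0.33 ± 0.06), which did not pass without SW-113 replicate 3. ABHD17C, a depalmitoylase gene, was at 56.3 CPM with SW-113 against 65.8 CPM with SW-138 (0.23 ± 0.06, SE; edgeR, Benjamini-Hochberg adjusted p = 0.0537) and passed under 8 of the 16 alternatives, among them DESeq2, total count alone and length and GC trends removed. The farnesyltransferase subunit genes FNTA and FNTB were at -0.10 ± 0.06 and -0.08 ± 0.09.

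Downstream, the RAF, MEK and ERK cascade had 0 of 12 higher and 1 lower, MAP2K2 (MEK2), with means of 140.2 ± 7.74 CPM for SW-113 (SD, n = 3) and 115.6 ± 7.39 CPM for SW-138 (-0.28 ± 0.06, SE; edgeR, Benjamini-Hochberg adjusted p = 0.0259). It did not pass with scaling by total count alone, nor without any one SW-113 library or SW-138 replicate 1. MAP2K1 (MEK1) was at -0.10 ± 0.04 and did not pass. Other effector genes had 2 of 16 higher, the phospholipase gene PLCE1 (0.25 ± 0.06) and AFDN (0.19 ± 0.04), and 1 lower, RALGDS (-0.22 ± 0.06), which activates Ral. AFDN and RALGDS lost their calls whichever library was left out, AFDN also with length and GC trends removed and RALGDS also with total count alone and with DESeq2, and PLCE1 passed in 1, without SW-138 replicate 2.

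Genes that ERK signalling is known to induce had 2 of 16 higher and 1 lower, with a median of 0.05. The 2 called with the smallest p are both ERK phosphatase genes and went opposite ways. DUSP4 was at 276.1, 274.7 and 286.0 CPM with SW-113 against 216.4, 212.6 and 218.2 CPM with SW-138, a log2 difference of -0.37 ± 0.04 (SE; edgeR, Benjamini-Hochberg adjusted p = 0.00288). DUSP5 was at 116.6, 130.1 and 123.2 CPM and 153.8, 158.6 and 153.4 CPM, a log2 difference of 0.33 ± 0.05 (edgeR, Benjamini-Hochberg adjusted p = 0.00728). Both kept their call whichever library was left out. SPRY4, a feedback inhibitor of receptor signalling, was at 0.20 ± 0.05 (edgeR, Benjamini-Hochberg adjusted p = 0.0487) and passed when SW-138 replicate 2 was left out but not when any other library was, nor with length and GC trends removed or with genes kept at 1 count in 1 library. The ETS factor genes ETV4 and ETV5 and the AP-1 gene FOSL1 did not pass, at 0.10 ± 0.06, 0.04 ± 0.05 and 0.01 ± 0.06.

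**Figure D5:**
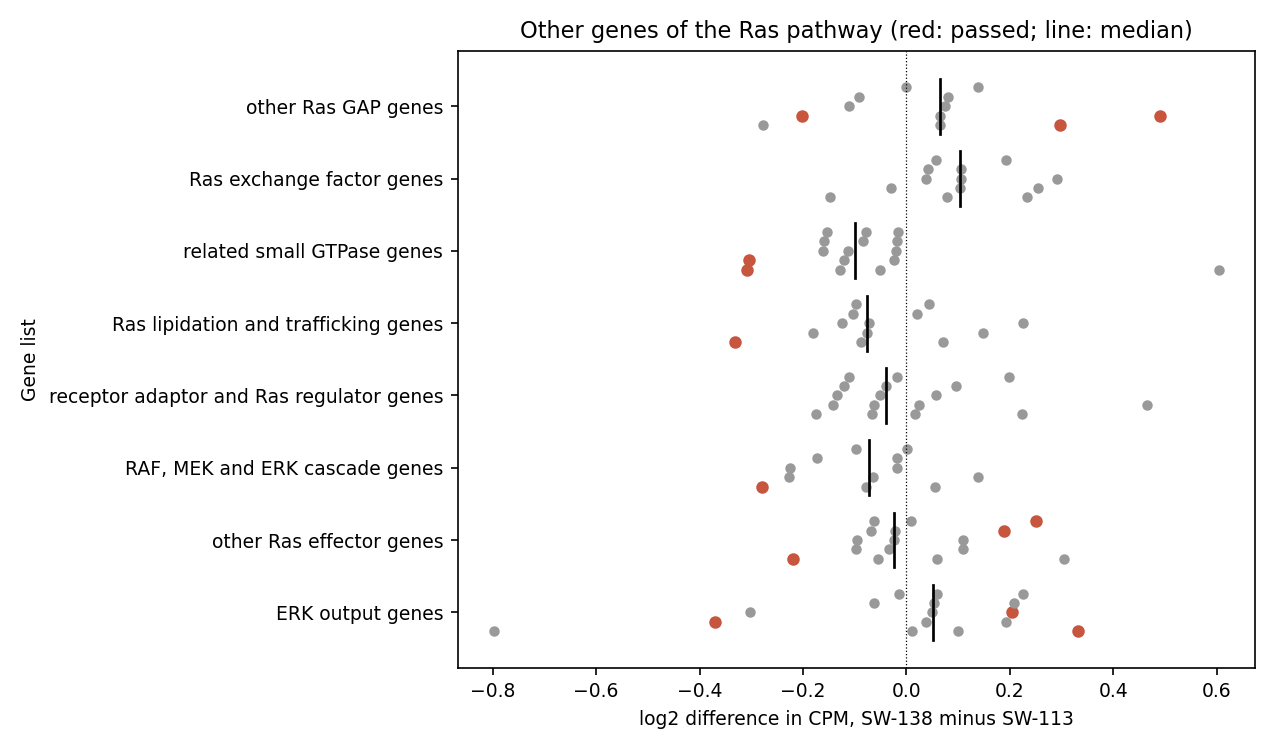
Log2 difference in CPM, SW-138 minus SW-113 (horizontal axis), for each tested gene of the 8 pathway lists, with genes past the threshold in red and the list median as a line. Few points are red (13 of 114 genes), and the medians lie between -0.10 and 0.10.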

How the data were processed

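Total RNA from frozen HT1080 pellets was depleted of ribosomal RNA and sequenced as paired reads, per the labels' protocols. The table the authors deposited holds expected counts per gene and library, not scaled between libraries. Between 10.56% and 11.56% of a library's values were not whole (tolerance 1e-09). Column names matched the sample titles. Per the submitters' processing notes the tools included RSEM 1.3.3, Bowtie2 2.5.4, Trimmomatic 0.39 and DESeq2 1.42.0, on build GRCh38, with no steps stated. The annotation version, filters and strand setting are not given in the sources used here. Expected counts divide reads among near-identical genes, and reads of overlapping genes on opposite strands may not be separated.

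Counts were rounded and filtered with edgeR's filterByExpr by compound, leaving 16905 genes. SW-138 was compared with SW-113 in edgeR 4.0.16 (quasi-likelihood test, TMM factors, no replicate block), and p-values were adjusted by Benjamini-Hochberg over the whole set of tested genes, with a threshold of 0.05. CPM used TMM-scaled totals. Standard errors came from limma-voom (limma 3.58.1), and 95% intervals were centred on the edgeR estimates. R was 4.3.3. Coordinates, lengths and sequence comparisons came from GENCODE 29, which held 57055 of the 60675 gene rows. Length and GC content were known for 16784 tested genes. Their trends were removed per library with splines through offsets.

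The members and lists were chosen with earlier results of these data known. Named genes were the members, the copies of RASA4, genes past the threshold in each list (at most 6), and up to 3 of the most abundant. CCNH, RP11-514P8.6, ABHD17C, MAP2K1, FNTA, FNTB, ETV4, ETV5, FOSL1, RASAL1 and RASAL3 fall outside this rule and were named after their values were seen. AFDN was matched by gene ID.

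On data simulated for this comparison, with 16637 genes in the fit, 20% of genes changed 1.25-fold were called (10 of 49), 52% of those changed 1.5-fold (26 of 50), 77% of those changed 2-fold (37 of 48) and 96% of those changed 4-fold (45 of 47). False calls numbered 18. Truth lay in 94.8% of intervals. The biological coefficient of variation was 7.56%. Alternatives were DESeq2 or upper-quartile factors, total count alone, 2 other filters, DESeq2, limma-voom, the replicate block, removal of length and GC trends with and without that block, and leaving out each library. Some sequences and 1 gene are not reported here.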

Additional observations from a re-analysis of the deposited data

How the results depend on the processing

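All 9 members kept the sign of their difference under the 16 alternatives, except NF1 without SW-138 replicate 2. NRAS ran from -0.14 to -0.03, HRAS from -0.40 to -0.23, RASA1 from 0.34 to 0.44, RASA3 from 0.14 to 0.25 and RASA4 from 0.82 to 0.89. Scaling by total count alone raised the values of all 9 members by similar amounts. For RASA1 (0.44) and RASA4 (0.89) this exceeded the spread between replicates, which was smallest in these 2 genes. The same scaling raised the median of all tested genes from 0.01 to 0.07 and the share of higher calls from 40.4% to 71.0%. Summing RASA4 with its copies gave 0.73, and 0.72 with the readthrough row. Among all tested genes 1153 were called (466 higher, 687 lower). The count was 2060 with genes kept at 1 count in 1 library, 2363 with the replicate block and 2257 with the block and length and GC trends removed. The block with those trends removed called 25 of the pathway genes, in place of 13, and the block alone 19. RASA3 passed with the block alone (0.18), and NRAS passed with the block and those trends removed (-0.14) but under no other alternative. Leaving out a library gave 303 to 1616 genes in all (303 without SW-113 replicate 3, 1616 without SW-138 replicate 2) and 3 to 14 of the pathway genes. The totals without SW-113 replicates 1 and 2 were 530 and 458, and without SW-138 replicates 1 and 3 they were 509 and 605. The cause of these shifts was not tested. Whether replicate numbers pair the samples is not in the labels, and pairing was not tested. Deviations from the group means correlated at 0.05, 0.21 and 0.05 for replicates 1, 2 and 3, and at -0.142 to 0.0903 between unlike numbers. SW-113 replicate 1 correlated best with SW-138 replicate 3 (0.0516 against 0.0492). RASA4 had 382.36 to 734.45 counts per library, which give a counting SD of 0.06 on the log2 scale.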

Other observations

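The RASA4 row, whose counts depend on the division of reads with RASA4B, varied less between replicates than counting alone would give. The SD of its log2 CPM within a compound was 0.0108, where Poisson counts of its size (382.36 to 734.45) give 0.0638. In the other 8 members the observed SD was above the counting value, as in NRAS (0.0653 against 0.0220) and DAB2IP (0.124 against 0.0377). The differences between RASA4 replicates thus lay below its counting error, and the standard error of its difference, 0.07, comes from a spread estimated with all genes. The sum of RASA4 with its copies spread more, from 12.9 to 13.9 CPM with SW-113 and from 22.02 to 23.2 CPM with SW-138. RASA4 was also chosen on this contrast, and the cause of its small spread was not tested.

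By the mean absolute difference of centred log2 CPM over the 6 libraries, the genes most like RASA4 among 13601 with a mean of at least 1 CPM were OSBP2 (0.0222), RCAN1 (0.0408) and SCG5 (0.0620). OSBP2, an oxysterol-binding protein gene, had a mean of 8.77 CPM for SW-113 and 15.9 CPM for SW-138. RCAN1, which encodes a calcineurin inhibitor, was at 39.8 and 69.5 CPM. SCG5, a secretory chaperone gene, was at 52.7 and 90.4 CPM. The measure is a description over 6 libraries of one contrast.

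Other rows tied to the members by name or sequence were low. The antisense-named RASAL2-AS1 had a mean of 1.67 CPM for SW-113 and 1.70 CPM for SW-138, and the NF1 pseudogene NF1P8 at 0.794 and 0.882 CPM. NF1P1, NF1P2 and the intronic row RASA2-IT1 were below 0.04 CPM in both groups, and RASA3-IT1 had 0 counts in every library.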
